A study of Drosophila melanogaster with 4 samples.

Results

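Broad H3K36me2 domains on chromosome arms 2L, 3L and 3R were examined in the Drosophila melanogaster line ML-DmBG3-c2, cultured cells from the central nervous system of larvae of the third instar, with the genotype y v f mal, per the labels. H3K36me2, histone H3 dimethylated on lysine K36, was mapped by chromatin immunoprecipitation and sequencing (ChIP-seq) with a mouse monoclonal antibody, in 2 ChIP replicates beside 2 input DNA replicates. The deposited results are enriched regions, called clusters here, in separate lists for the replicates and in a combined list of both. A broad domain is a combined-list cluster of 10 kb or more whose midpoint lies outside the centromere-proximal 2 Mb of its arm, meaning below 21011545 on 2L, below 22543558 on 3L and above 2000000 on 3R. There were 282 such domains among the 6396 enriched clusters of the combined list, and among the 3373 clusters on the counted parts of these 3 arms. All coordinates are on FlyBase r5. The description field of ChIP replicate 1 calls it input DNA, and that of ChIP replicate 2 names both ChIP DNA and input DNA, so the values of each replicate are given apart. Which label is right was not tested.

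Methylation of lysine K36 of histone H3 marks transcribed chromatin and the surroundings of genes kept active. In Drosophila, Set2 adds the trimethyl form over the bodies of transcribed genes, whereas NSD (also called Mes-4) and the trithorax group protein Ash1 are known to add the dimethyl form. K36 methylation hinders the Polycomb enzyme that deposits the repressive mark on lysine K27 of the same histone tail. No genes were placed on the domains, because the gene table at hand is on Release 6 of the assembly and the lists are on r5.

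The domains were chosen by their length in the combined list, so their number, length and score are descriptions without a test. The score is the authors' own value for each cluster, on an unstated scale. The combined list was made from the same replicates, so the replicate values below are not an independent check of it. Read depth is unknown, since the lists hold no counts, and no interval that needs a depth is given.

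The 282 domains were few in number but held a large part of the marked sequence. They made up 8.36% of the clusters on the counted arms and 31.6% of the sequence in them, 4.78 Mb in all, or 6.88% of the 69.5 Mb counted. Their median length was 13.96 kb, with quartiles at 11.5 and 19.6 kb, and the 3091 shorter clusters of the same arms had a median length of 2663 bp. The lengths fell off steeply. There were 106 domains of 10 to 12.5 kb, 55 of 12.5 to 15 kb, and 55 of 15 to 20 kb. Another 43 measured 20 to 30 kb, 17 measured 30 to 40 kb, and 6 were longer. The 23 domains of 30 kb or more were spread over all 3 arms, 9 on 2L, 4 on 3L and 10 on 3R.

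At the length limit the members and the clusters left out were alike in size and overlapping in score. The 5 shortest members ran from 10003 to 10154 bp, with scores of 1.63 on 3L from 1716976, 2.52 on 3R from 20439888, 0.90 on 2L from 3792226, 1.35 on 3R from 12369620 and 1.67 on 3L from 18823280. The 5 longest clusters outside the limit ran from 9842 to 9964 bp, with scores from 0.91 to 2.47.

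Domains scored high within each list. The median combined score was 2.04 for the domains and 0.61 for the shorter clusters of these arms. In the combined list 159 domains, or 56.4%, reached the highest 10% of scores on these arms, against 5.79% of the shorter clusters. Applied to each replicate list, the same length rule gave a median score of 2.16 for broad regions and 0.83 for shorter clusters in replicate 1, and of 2.13 and 0.81 in replicate 2. Against the 591 clusters of 5 to 10 kb alone, whose median combined score was 1.504, the domains stood higher by 0.53, and against all shorter clusters by 1.43.

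**Figure D1:**
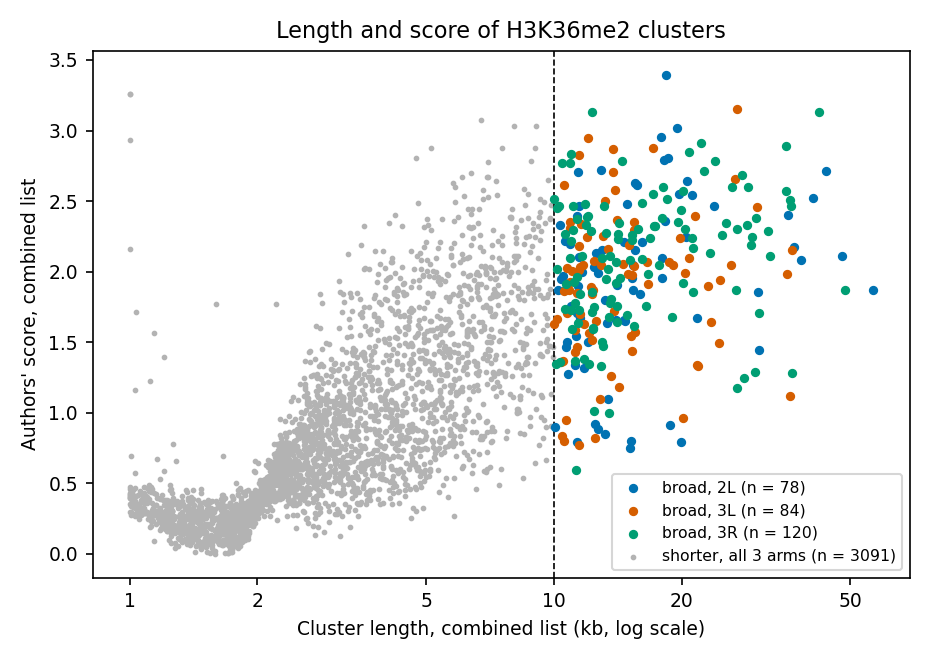
Score of each cluster on the counted parts of 2L, 3L and 3R in the combined list (y axis, authors' score) against its length (x axis, kb, log scale). Coloured points are the 282 broad domains by arm, grey points the 3091 shorter clusters, and the dashed line marks 10 kb. The scores climb with length below the line and spread between 0.59 and 3.40 beyond it.

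Length and score went together much less among the domains than among shorter clusters. Spearman's rho across regions was 0.26 over the 282 domains and 0.84 over the 3091 shorter clusters of the combined list. The replicate lists gave 0.23 over 250 broad regions and 0.85 over shorter clusters in replicate 1, and 0.28 over 224 and 0.86 in replicate 2. Regions are not independent replicates, and the domains span only part of the length range. The median score was 1.87 for domains of 10 to 12.5 kb, 1.95 at 12.5 to 15 kb, 2.19 at 15 to 20 kb, 2.24 at 20 to 30 kb, 2.16 at 30 to 40 kb and 2.32 beyond. Scores varied widely within the shorter classes, from 0.59 to 3.13 at 10 to 12.5 kb and from 0.96 to 3.16 at 20 to 30 kb. They ran from 1.12 to 2.89 over the 17 domains of 30 to 40 kb and from 1.868 to 3.13 over the 6 longest. A class of few domains can have a narrower range for that reason alone. Of the 17 domains with scores of 1 or less, 8 measured 10 to 12.5 kb, and the longest measured 20.2 kb.

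Arm 3R carried the most domains per length, and the arms 2L and 3L were close. The combined list had 78 domains on 2L, 84 on 3L and 120 on 3R, which came to 3.71, 3.73 and 4.63 per Mb. The same rule on the replicate lists gave 3.14 ± 0.471 per Mb on 2L, 3.04 ± 0.282 on 3L and 3.96 ± 0.0819 on 3R (SD, n = 2 for each). Thus 3R was highest in all 3 lists, while the order of 2L and 3L changed between lists: replicate 1 had 3.47 on 2L and 3.24 on 3L, replicate 2 had 2.81 and 2.84. The spread along each arm was wide. In 1 Mb blocks, 3R held 4.48 ± 2.33 domains, 2L 3.71 ± 2.69 and 3L 3.55 ± 2.36 (SD over 25, 21 and 22 blocks). The arm means differed by less than 1 SD of their blocks. That SD is the scatter of single blocks and does not measure the uncertainty of an arm mean. Domains covered 8.20% of the counted part of 3R, 6.41% of 2L and 5.79% of 3L, although all clusters together covered similar shares of 22.7%, 20.4% and 21.9%.

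In the combined list the arms differed in which lengths were frequent, and the shares by length below are from that list alone. Lengths of 20 kb or more were reached by 35 of the 120 domains on 3R, or 29.2%, by 17 of 84 on 3L (20.2%) and by 14 of 78 on 2L (17.9%). At longer lengths 2L had the larger share. Domains of 30 kb or more made up 11.5% of those on 2L, 8.33% on 3R and 4.76% on 3L, and those of 40 kb or more numbered 4 on 2L, 2 on 3R and 0 on 3L. The median length in the combined list was 14.19 kb on 3R, 14.34 kb on 2L and 13.15 kb on 3L. The order of the arms changed between lists. Replicate 1 had 14.41 kb on 3R, 13.01 kb on 2L and 13.25 kb on 3L, and replicate 2 had 14.12, 14.37 and 12.53 kb. Median combined scores were 2.15 on 3R and 1.98 on each of 2L and 3L.

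Values for the autosomal domains were close to those for regions of the same length class on X. Regions of 10 kb or more on X outside its centromere-proximal 2 Mb numbered 89, or 4.36 per Mb, with the 3 autosomal arms together at 4.06 per Mb. Median lengths were 13.96 kb on the autosomal arms and 14.14 kb on X, and median combined scores were 2.04 on the autosomal arms and 2.07 on X. In the replicate lists the autosomal arms had 3.599 and 3.225 broad regions per Mb and X had 3.67 and 3.38. No test was made of these differences, and X lay between 3L and 3R in density in each list.

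**Figure D2:**
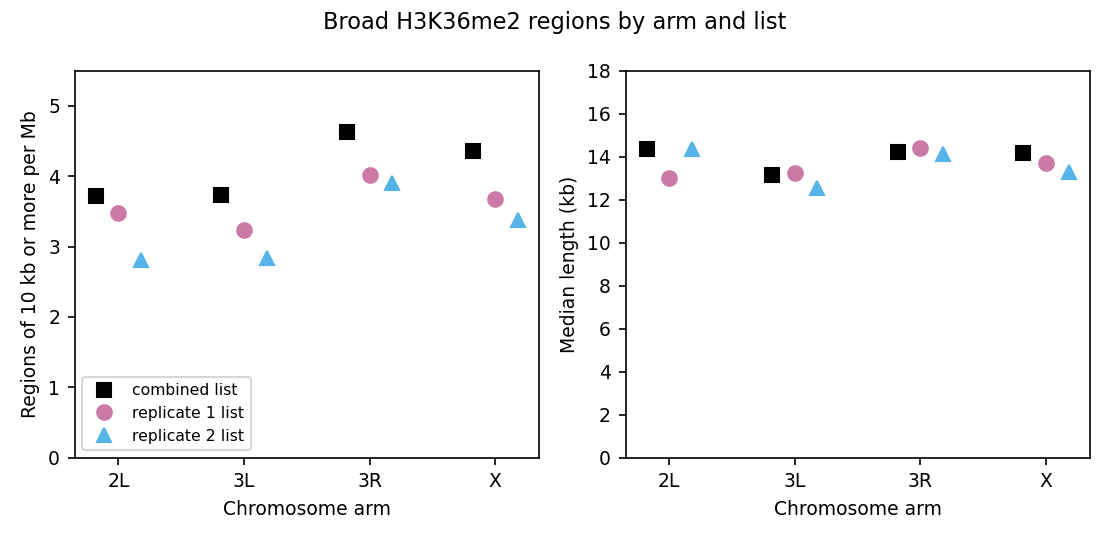
Regions of 10 kb or more per Mb (left) and their median length in kb (right) on the counted parts of 2L, 3L, 3R and X, in the combined list (squares), the ChIP replicate 1 list (circles) and the ChIP replicate 2 list (triangles). Density is highest on 3R in every list, from 3.90 to 4.63 per Mb, and median lengths stay between 12.5 and 14.4 kb.

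Both replicates marked nearly all of the domain sequence. Clusters covered a mean of 96.5% of a domain in replicate 1 and 93.97% in replicate 2, or 95.2% ± 1.76 (SD, n = 2). The medians were 98.8% and 96.9%. In both replicates, 278 domains were covered over at least 50% of their length and 212 over at least 90%. Of all domain sequence, 91.96% lay in clusters of both replicates and 0.826%, or 39.4 kb, in neither. Replicate 1 covered more of the domain than replicate 2 in 184 cases and less in 98. The shorter clusters of these arms were covered on average over 74.6% in replicate 1 and 71.9% in replicate 2, but those of 5 to 10 kb over 94.4% and 91.5%, close to the domains.

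**Figure D3:**
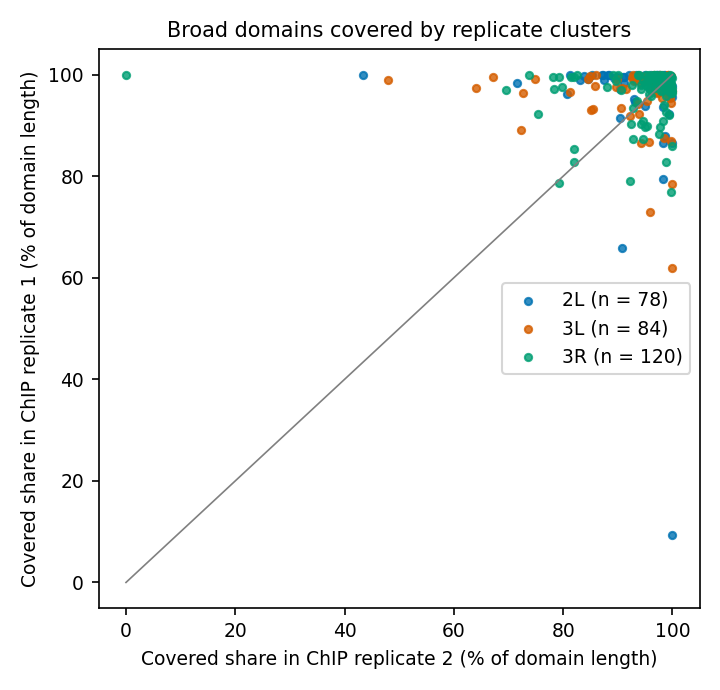
Share of each broad domain covered by clusters of ChIP replicate 1 (y axis, % of domain length) and of ChIP replicate 2 (x axis, %), with 1 point per domain, coloured by arm, and the line of equal shares in grey. Most points crowd the upper right corner, and 4 domains fall below 50% in one replicate.

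Cover fell below 50% at 4 domains, each time in a single replicate. On 2L, the 15.2 kb domain from 6373612 to 6388829 was covered over 9.42% in replicate 1 and 99.96% in replicate 2. On 3R, the 11.3 kb domain from 27139039 to 27150315 was covered completely in replicate 1 and met no cluster of replicate 2, and its combined score of 0.59 was the lowest of all domains. The other two were well covered in replicate 1. On 2L from 14973478 to 14985266 the cover was 100% in replicate 1 and 43.3% in replicate 2, and on 3L from 17494378 to 17504896 it was 98.99% and 47.9%. The next lowest shares were less extreme. In replicate 1 they were 61.9% on 3L from 4270027, 65.8% on 2L from 15512474, 72.9% on 3L from 22212706 and 76.9% on 3R from 19426943, where replicate 2 covered at least 90.8%. In replicate 2 they were 64.0% on 3L from 7828922 and 67.2% on 3L from 22338018, where replicate 1 covered at least 97.4%.

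A domain of the combined list was often broken in the replicate lists. In 148 domains a single cluster covered at least 90% of the length in each replicate. This held in replicate 1 only for 60 domains, in replicate 2 only for 33 and in neither for 41. Replicate 1 had 1 cluster at 218 domains, 2 at 56, 3 at 7 and 4 at 1. Replicate 2 had none at 1 domain, 1 at 203, 2 at 62, 3 at 14 and 5 at 2. The largest replicate cluster itself reached 10 kb in both replicates for 207 domains, in replicate 1 alone for 36, in replicate 2 alone for 15 and in neither for 24. These 24 were among the shorter domains, with a median of 11.05 kb and a maximum of 15.5 kb, and 21 of them had an interior gap in at least one replicate.

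The breaks were small, and more of them were fully covered in the other replicate than not. Replicate 1 had 72 interior gaps in 64 domains, 41.0 kb in all, with a median of 324.5 bp and a maximum of 2896 bp. Replicate 2 had 98 in 78 domains, 67.9 kb in all, with a median of 508.5 bp and a maximum of 3726 bp. Of the replicate 1 gaps, 43 were fully covered in replicate 2, 19 in part and 10 not at all, so that 29 held some sequence in no cluster of either replicate. Of the replicate 2 gaps, 70 were fully covered in replicate 1, 21 in part and 7 not at all, which left 28 of this kind. By sequence, replicate 2 covered 72.2% of the replicate 1 gaps and replicate 1 covered 85.3% of the replicate 2 gaps. Interior gaps were present in both replicates at 37 domains, in replicate 1 only at 27, in replicate 2 only at 41 and in neither at 177. Most of the uncovered sequence lay at the ends of domains, 118.2 kb in replicate 1 and 185.1 kb in replicate 2, rather than inside them.

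The domains in most pieces were on 3L and 2L. The 35.9 kb domain on 3L from 3557564 to 3593510 fell into 3 clusters in replicate 1 and 5 in replicate 2, with cover of 92.9% and 85.1%. On 3L from 8873702 to 8889019 there were 4 and 3 clusters, and on 3L from 15064973 to 15088069 and from 11603159 to 11613740 there were 3 in each replicate. On 2L, the domain from 11156823 to 11175632 was 1 cluster in replicate 1 and 5 in replicate 2.

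The replicates often placed a single border within 200 bp of each other, but less often both borders of a domain. At the 281 domains met by both replicates, the outermost starts lay a median of 145 bp apart and the outermost ends 189 bp apart. Starts were within 200 bp at 60.5% of domains and ends at 53.7%, and within 1 kb at 86.8% and 84.7%. Both borders lay within 200 bp at 93 of the 281 domains, or 33.1%, and neither did at 53. The largest distances were 9.92 kb for starts and 11.7 kb for ends. Replicate 1 reached further out than replicate 2 at 164 of 281 starts and 162 of 281 ends. The combined borders lay a little outside those of the replicates, by a median of 46 bp at starts and 62 bp at ends for replicate 1, and 92 bp and 85 bp for replicate 2.

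The replicates ranked the domains similarly by score. Taking for each domain the replicate cluster of largest overlap, Spearman's rho between the replicate scores was 0.87 and Pearson's r 0.85 across 281 domains, as a description. Scores were higher in replicate 1 at 176 domains and in replicate 2 at 105, with a median difference of 0.05. The median percentile of these clusters within the scores of their own list was 90.7 in replicate 1 and 90.6 in replicate 2. In 17 domains the scores differed by 0.5 or more. The widest difference, 2.01, was at the broken 3L domain from 11603159, where the largest pieces were 4144 bp with a score of 2.59 in replicate 1 and 3607 bp with 0.59 in replicate 2. On 3R from 19426943 to 19447059 the order was the opposite, with 0.71 for a 9184 bp piece in replicate 1 and 2.46 for a 20322 bp cluster in replicate 2.

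The longest domains were marked over most of their length in both replicates. On 2L the longest ran from 19806868 to 19863293 (56.4 kb), with a combined score of 1.87 and replicate scores of 1.97 ± 0.13 (SD, n = 2), and it was covered over 98.9% and 97.4% in replicates 1 and 2. It was followed by 47.8 kb from 14301518 to 14349273, with 86.6% and 100% cover, where the replicate 1 clusters left out the first part. Next came 43.8 kb from 17644780 to 17688550 (100% and 95.03%), 40.9 kb from 5178950 to 5219884 (97.7% and 99.6%) and 38.2 kb from 19896729 to 19934910 (100% and 88.4%). Their combined scores were 2.11, 2.72, 2.52 and 2.08.

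On 3R the longest domain ran from 4896464 to 4944960 (48.5 kb) and was a single cluster over 99.7% of its length in replicate 1 and 99.8% in replicate 2, although its combined score of 1.87 was below the median of all domains. The second, from 22390278 to 22432543 (42.3 kb), combined great length with a score of 3.13, the second highest on 3R. The other 3 of the 5 longest on 3R ran from 12328913 to 12365419 (36.5 kb, score 1.28), from 6440086 to 6476364 (36.3 kb, 2.46) and from 21411485 to 21447515 (36.03 kb, 2.51), each covered over at least 95.2% in both replicates.

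Arm 3L had no domain of 40 kb. Its longest ran from 21888744 to 21925213 (36.5 kb, score 2.16), as 1 cluster in replicate 1 and 3 in replicate 2. The other 4 were the broken domain from 3557564 described above (score 1.12) and those from 2493743 to 2529129 (35.4 kb, 1.98), from 22290197 to 22320247 (30.1 kb, 2.46) and from 9628404 to 9655386 (27.0 kb, 3.16).

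**Figure D4:**
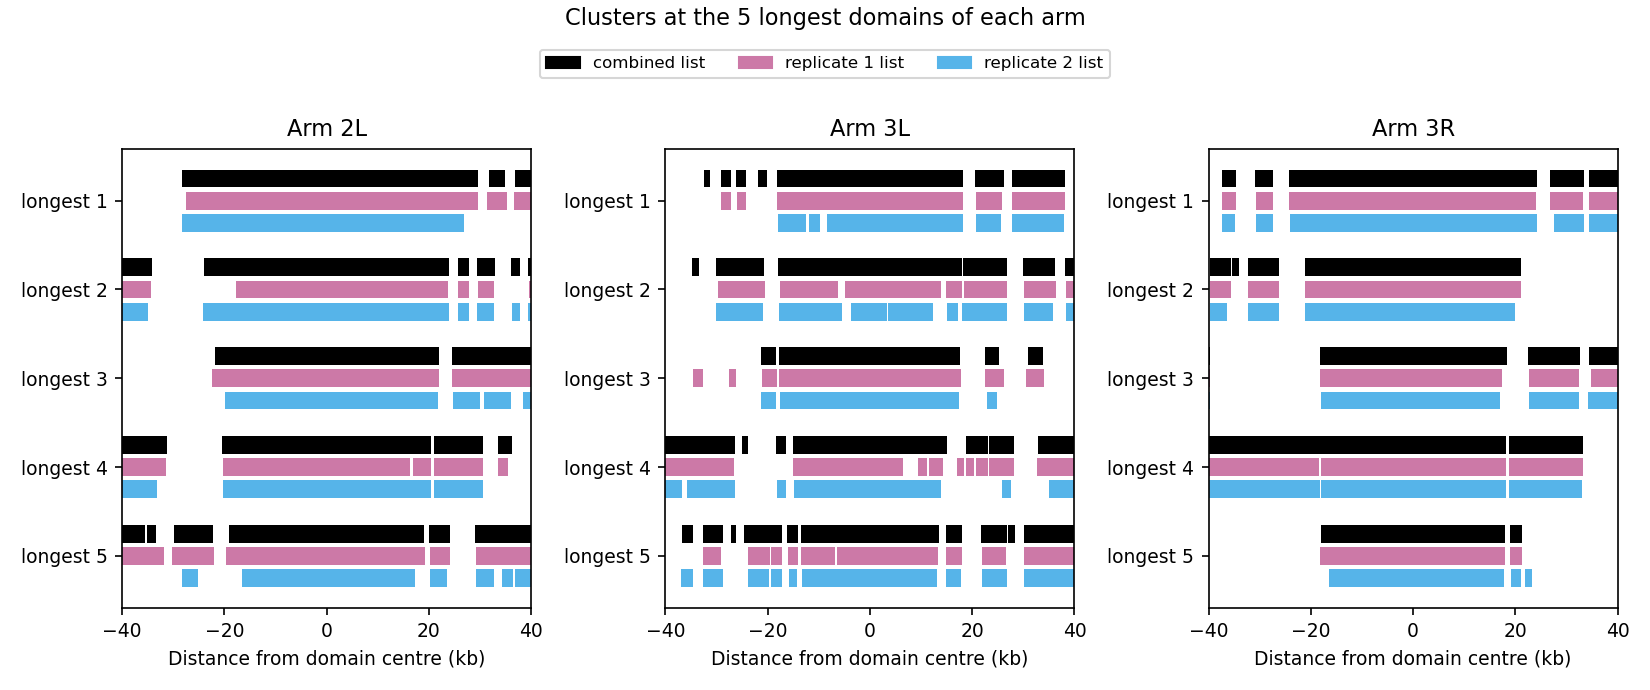
Clusters around the 5 longest broad domains of each arm, from the longest (top) down, drawn by distance from the domain centre (x axis, kb), with the combined list in black, ChIP replicate 1 in pink and ChIP replicate 2 in blue; other clusters in the window are drawn too. The domains of 3R are continuous in both replicates, and the second longest of 3L is in 3 pieces in replicate 1 and 5 in replicate 2.

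The highest scores belonged to domains of many lengths, from 11.4 to 42.3 kb over the 5 highest of each arm. On 2L the top score, 3.40, was that of an 18.4 kb domain from 15727453 to 15745811, with 3.42 in replicate 1 and 3.39 in replicate 2. It was followed by scores of 3.02 from 20428705 to 20448228, 2.95 from 9640140 to 9658059, 2.81 from 16331977 to 16350557 and 2.79 from 8171889 to 8190094. All 5 of these 2L domains measured between 17.9 and 19.5 kb. On 3L the domain from 9628404 led with 3.16, and the next were 2.95 from 12198379 to 12210388, 2.88 from 16801211 to 16818356, 2.87 from 15111758 to 15125516 and 2.83 from 2455601 to 2467041. On 3R a 12.3 kb domain from 20021804 to 20034086 scored 3.13, with 3.43 in replicate 1 and 3.13 in replicate 2. It was followed by the 42.3 kb domain from 22390278 and by scores of 2.91 from 6115375 to 6137630, 2.89 from 24521505 to 24556793 and 2.85 from 21525450 to 21546274. Each of these 15 was covered over at least 93.0% in each replicate.

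At the other end, 17 domains had a combined score of 1 or less, and the lowest after the 3R domain from 27139039 were 0.75 on 2L from 16620624 to 16635765 and 0.77 on 3L from 4270027 to 4281491. Most of these 17 were covered less well in one of the replicates. The lower of the 2 replicate covers had a median of 74.8% over these 17 and 96.1% over the 265 domains with higher scores, and it was under 90% at 15 of the 17 (88.2%) and at 55 of the 265 (20.8%). Among the 6 lowest scores, the lower cover was 0% on 3R from 27139039, 61.9% on 3L from 4270027, 65.8% on 2L from 15512474, 80.7% on 2L from 13940265 and 81.2% on 3L from 11603159. The domain on 2L from 16620624 was the exception, with 99.1% in replicate 1 and 95.02% in replicate 2. The scores and the cover come from the same libraries, and no test of their relation was made.

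Some domains lay close together and others far apart. The median gap to the nearest other domain was 55.9 kb, with quartiles at 13.4 and 142 kb. A gap under 10 kb was found for 57 domains and one over 100 kb for 96. Counting gaps under 50 kb as links, 131 of the 282 domains, or 46.5%, fell into 50 runs, of which 18 held 3 domains or more. The share that the density of domains alone would give was not worked out. The share in runs was 37.2% for the 121 domains of 15 kb or more. It was 57.8% for the 391 regions left after joining clusters less than 1 kb apart. Runs took in 51.2% of the domains of 3L, 45.8% of those of 3R and 42.3% of those of 2L.

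The longest run was on 3R. It spanned 200.9 kb from 6331867 to 6532720 and held 7 domains, which filled 77.1% of it, and clusters covered 80.8% of the span in replicate 1 and 79.6% in replicate 2. The scores within it ran from 1.17 to 2.78. Adjacent members in this run lay only 45 bp apart, from 6414619 to 6440040 and from 6440086 to 6476364, so the list splits what is almost continuous sequence. With clusters less than 1 kb apart joined, 4 domains of this run formed 1 region of 107.4 kb from 6383967 to 6491353, the longest on these arms under that setting, and the next longest measured 57.7 kb.

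The other long runs held 3 to 6 domains. On 3L a run of 6 spanned 181.2 kb from 22212706 to 22393907, at the proximal limit of the counted part, with scores from 0.82 to 2.46 and with 66.4% of the span covered in replicate 1 and 58.9% in replicate 2. On 3R a run of 3 spanned 163.6 kb from 11760287 to 11923935, with scores of 2.38, 2.57 and 2.60 and cover of 79.4% and 80.8%. On 2L a run of 3 spanned 150.5 kb from 19806868 to 19957361 and included 2 of the 5 longest domains of that arm. It was covered over 91.0% in replicate 1 and 70.2% in replicate 2. On 3L a run of 4 spanned 137 kb from 2433139 to 2570187, with cover of 66.1% and 58.1%.

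Other close pairs were on 3R, where gaps of 62 bp separated domains from 17124968 to 17146209 and from 17146272 to 17173094, and 277 bp set the domain from 17325939 to 17346344 apart from its neighbour. The most solitary domain was on 2L, from 11156823 to 11175632, at 1218.2 kb from any other. It was followed by 3R from 2260233 (736.2 kb), 3R from 13201163 (733.9 kb), 2L from 7470273 (617 kb) and 3L from 20816933 (580.0 kb).

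Along the arms, domains were unevenly spread, in much the same places in both replicates. How uneven a spread the density of domains alone would give was not worked out. Of the 68 full 1 Mb blocks, 4 held no domain, and 12 held 7 or more and together 93 of the 268 domains in such blocks. The richest was 3R from 6000001 to 7000000 with 11 domains over 22.4% of its sequence, and each replicate list alone had 11 broad regions there. It was followed by the first Mb of 3L with 9, and by the first Mb of 2L, 2L from 19000001 to 20000000 and 3R from 24000001 to 25000000 with 8 each. The blocks without a domain were 2L from 2000001 to 3000000, 2L from 10000001 to 11000000, 3L from 6000001 to 7000000 and 3L from 13000001 to 14000000, and neither replicate list had a broad region in any of them. Between the replicate lists, the number of broad regions per block correlated with Spearman's rho of 0.91 and Pearson's r of 0.92 over the 68 blocks, which is a description of lists made from 1 antibody and cell line.

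The number of domains in a block followed the number of shorter clusters only loosely. Spearman's rho over the 68 blocks was 0.21 for numbers and 0.24 for covered shares. The 2L block from 10000001 to 11000000 had 65 shorter clusters over 20.1% of its sequence and no domain, and the richest 3R block had 33 shorter clusters over 8.89%. With the counted part of each arm cut into 3 equal lengths, the proximal length of 2L held 36 of 78 domains, the middle one 20 and the distal one 22. Of the shorter clusters of 2L, 226 lay in the proximal length, 338 in the middle and 313 in the distal one. On 3R the lengths were even, with 43, 39 and 38 domains from distal to proximal, and on 3L the middle one held 21, the distal one 32 and the proximal one 31.

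The sequence within 20 kb of domains was marked more than the arms as a whole, and about as much as that around shorter clusters. Beyond 20 kb the cover around domains was mostly higher than that around shorter clusters in both replicates. In the 20 kb on each side, clusters covered 29.0% ± 1.68 around domains and 29.1% ± 0.533 around shorter clusters (SD over replicates, n = 2), against 19.6% of the counted arms in replicate 1 and 18.8% in replicate 2. In the first kilobase outside the domain the cover was 11.5% in replicate 1 and 9.61% in replicate 2, and at 4 to 5 kb it was 37.7% and 35.3%. A drop in the first kilobase follows from the edge being where a combined cluster ends. Shorter clusters had 9.87% and 8.48% there. The median gap to the nearest cluster of any length was 1584 bp for domains and 1528 bp for shorter clusters. No cluster of the combined list lay within 20 kb on either side of 16 domains, or 5.67%, against 3.59% of shorter clusters. All replicate covers given here include any part of a region's own replicate cluster that runs past the combined edge. Replicate 1 ran past the combined start at 87 domains and the end at 73, and replicate 2 at 38 and 45. The shares with no cover in the flanks were then 2.13% of domains and 2.69% of shorter clusters in replicate 1. They were 7.801% and 5.18% in replicate 2. The combined list counts other clusters only, so its shares cannot be set against these.

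**Figure D5:**
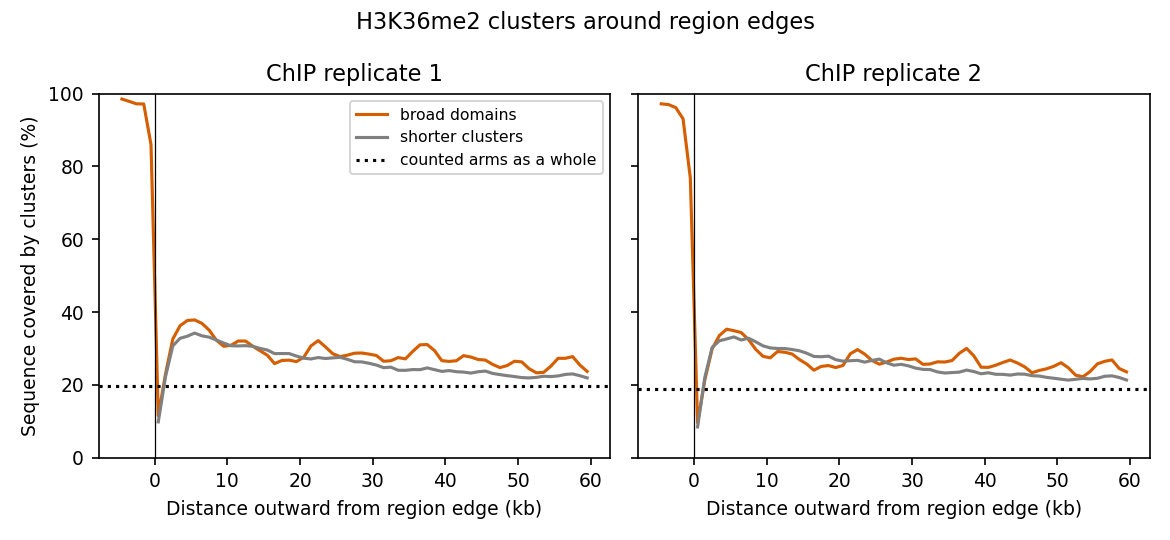
Share of sequence covered by clusters (y axis, %) by distance outward from the edges of combined-list regions (x axis, kb, in 1 kb steps, both sides pooled; below 0 is inside), for broad domains (orange) and shorter clusters (grey), with the share of the counted arms dotted; left, ChIP replicate 1, right, ChIP replicate 2. The cover drops at the edge, where the combined region ends by definition, to 11.5% and 9.61% for domains. It climbs within 5 kb and stays within a few points of that of shorter clusters up to 20 kb. Further out it lies above that of shorter clusters in most steps of both replicates. Parts of a region's own replicate cluster past the edge count as cover.

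Some domains stood at the border of long unmarked sequence. Stretches of 100 kb or more without a cluster in any list numbered 132 on the counted arms, and 23 of their 264 sides had a domain within 1 kb. These were 23 domains, or 8.16%, and among shorter clusters 7.31% bordered such a stretch. No stretch had a domain at both sides. The longest bordered stretch, 366.3 kb on 2L, ended at 14973180, next to the domain from 14973478 that replicate 2 covered over only 43.3%. On 3R a 262.2 kb stretch began at 18618751, after the domain from 18607741. On 3L a 253.7 kb stretch began at 15240201, directly after the domain from 15228681 to 15240200, which had no other cluster within 20 kb on its other side either.

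Most of the broad regions that the length rule found in a replicate list overlapped a broad region of the other replicate. Replicate 1 had 250 regions of 10 kb or more on the counted arms and replicate 2 had 224. Of the replicate 1 regions, 210 (84.0%) overlapped a broad region of replicate 2, and of the replicate 2 regions, 209 (93.3%) overlapped one of replicate 1. All 224 of replicate 2 and 247 of replicate 1 overlapped a broad domain of the combined list. The 3 that did not were on 2L and at most 12.3 kb long. Combined clusters under 10 kb covered 99.4% of the region from 4361733, as 1 cluster. They covered 88.9% of that from 14084438 and 83.1% of that from 19871689, as 2 clusters each.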

How the data were processed

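The values are the authors' deposited lists of enriched regions, with a start, an end and a score in each row. The score is the deposited value of the caller that the authors ran. Its scale, the name and threshold of that caller, the role of the input and how the combined list arose are unstated (not given in the sources used here). Per the submitters' processing notes, Bowtie 0.12.7 was used, and the build is FlyBase r5, per the file headers. The shortest region was 1301 bp in the replicate lists and 1001 bp in the combined list. Rows named as depletion, 16 in the combined list, were left out. Input libraries were not analysed here. Depth is unknown.

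Samples were grouped by their titles. From the lists, domain counts, covered shares (overlap from 1 bp), gaps, borders, runs (gaps under 50 kb), 1 Mb blocks and 20 kb flanks were computed with Python 3.11.15, numpy 2.4.6 and pandas 2.3.3, and figures were drawn with matplotlib 3.10.9. Covered shares, gaps at the ends and inside domains, gaps to the nearest domain and runs were tested on simulated lists, and the other measures were not. No statistical test was made: the members were chosen on these lists, and each replicate is 1 list. Nothing in the labels says that the replicates came from separate cultures, so their spread may be technical. Regions named in the text are the 5 longest and 5 highest-scoring domains of each arm, the 5 least covered domains per replicate, the 5 in most pieces, the 5 longest runs, the 5 domains nearest to and farthest from another, and the 5 regions on each side of the length limit; the widest score differences, the lowest scores, the richest and empty blocks and the domains beside unmarked stretches were named after their values were seen. The members and lists were chosen with earlier results of these data known. Alternatives changed the length limit, the joining of near clusters, the score range, the centromere-proximal limit, the lists used and the shares or borders that count.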

Additional observations from a re-analysis of the deposited data

How the results depend on the processing

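Of 56 alternative values, 32 stayed within a set tolerance and 24 did not. A change of sign was possible only for the score difference and for the correlation of length and score, and neither changed sign. The mean cover in a single replicate falls within the tolerance by construction, so its staying there carries no information. The tolerance was 1.5 times for counts. For border distances it was a binomial interval of the median over domains. That interval takes domains as independent, which regions are not, so a border distance outside it is not a test result. For the other values it was the SD of the replicates (n = 2). That SD was only 0.0032 for the score difference, where every alternative fell outside it. A limit of 15 kb left 121 domains, at 1.67 per Mb on 2L, 1.38 on 3L and 2.12 on 3R, with a score difference from shorter clusters of 1.54, a median gap of 105.7 kb and 37.2% of domains in runs. Joining clusters less than 1 kb apart gave 391 domains, at 5.52, 5.41 and 5.91 per Mb on 2L, 3L and 3R, with a score difference of 1.12, a median gap of 32.3 kb, 57.8% in runs and a mean cover of 90.4%. Against clusters of 5 to 10 kb alone the score difference was 0.53. With the largest replicate cluster alone, borders lay 178 bp apart at starts and 227 bp at ends. On a single replicate list, the density ranged from 2.81 to 3.47 per Mb on 2L, from 2.84 to 3.24 on 3L and from 3.90 to 4.01 on 3R, and the score difference from 1.319 to 1.323. The density was highest on 3R under each of these settings. The cause of these shifts was not tested, apart from the length limit and the joining, which change the members themselves. No paired analysis was possible because the input libraries have no values here and no test was made. Counts of genes in the domains were not run, since no annotation of the build was at hand. Depth is unknown, so absence from a list means only that no region passed the authors' threshold.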
